A study of Mus musculus with 40 samples.

Results

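Solute carriers and ion channels were measured across mouse tissues, primary cells and cell lines on nylon filter arrays. Members were taken by gene symbol: every spot with a single symbol beginning with Slc and a number, Slco, Kcn, Cacn, Scn and a number, Clcn, or Trpa, Trpc, Trpm or Trpv and a number, with Slc27a2 left out. They came to 65 genes on 69 spots, of 3284 genes named on 5760 spots. A gene with 2 spots was represented by the brighter one on average. The rule works on names alone, so it also took Slc7a6os, a gene on the strand opposite to a carrier, and Trpc4ap, a protein that associates with a TRP channel. Neither is itself a carrier or a channel. The rule also took Kcnip3, a potassium channel-interacting calcium sensor, which is counted below with the potassium channel genes.

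Solute carriers move sugars, amino acids, nucleotides, vitamins, organic ions, metals and phosphate across the plasma membrane or the membranes of organelles. Ion channels let potassium, calcium, sodium or chloride pass down their gradients, and with them set membrane potential, excitability, cell volume and calcium entry. Muscle, liver, fat cells and macrophages are each known for their own carriers and channels, such as the liver glucose carrier Slc2a2 or the potassium channels Kcna3 and Kcnn4 of leukocytes.

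The 40 arrays each held total RNA of 1 sample, labelled with 33P. The cultured groups were preadipocyte lines kept below confluence (5 samples of 4 lines: 3T3-L1 with 2 samples, 3T3-F442A, Ob1774 and Hgfu), 3T3-F442A adipocytes after 7 days with rosiglitazone (3), proliferating C2C12 myoblasts (3), C2C12 myotubes after 7 days in horse serum (2), proliferating C3H-10T1/2 mesenchymal stem cells (3), 2 macrophage lines, Raw 264 (3) and J774 (2), and embryonic stem (ES) cells of the line ZIN40 grown with LIF (3) or without it (3). Inguinal white fat gave collagenase-isolated adipocytes (3) and stroma-vascular cells (3). Liver (2), tibialis muscle (2) and peritoneal macrophages (3) were the other primary samples. The macrophages and the stroma-vascular cells were plated for 24 h before extraction. Strain, age and sex are not given in the labels used here, and each cultured group other than the preadipocytes and macrophages is a single line. The labels leave unsaid whether replicates were separate cultures or animals. The p-values therefore rest on the spread among arrays, which could be technical.

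Levels are given throughout as quantile-normalized intensity divided by 1000. Where groups are said not to overlap, this describes the samples only. Groups of so few samples can separate by chance, and the share of all spots that did so was not counted. Labelled cell types were checked against markers by their summed level. The 5 liver markers summed to 2498 in liver sample 1, 807 in liver sample 2 and no more than 477 in any other group. The 8 skeletal muscle markers summed to 2538 and 2559 in tibialis muscle, 1153 and 1411 in myotubes and at most 676 elsewhere. The 5 macrophage markers ran from 813 to 994 in peritoneal macrophages, 486 to 812 in Raw 264 and 395 to 404 in J774, against at most 344 in other groups. The 4 adipocyte markers ran from 395 to 598 in tissue adipocytes and 432 to 575 in 3T3-F442A adipocytes, against at most 357 elsewhere. By the F test described below, 4 of 5 liver, 8 of 8 muscle, 4 of 5 macrophage and 3 of 4 adipocyte markers differed among groups. In 3T3-F442A adipocytes Lpl was 312, 230 and 337, and Retn, 45.7, 44.2 and 45.6, lay within the 33.25 to 53.2 of preadipocyte samples. Tnnc1 was lower in tibialis muscle (57.6 and 87.1) than in myotubes (344 and 257). Ckm was 255 in liver sample 1, against 249 and 246 in tibialis muscle. The ES markers are not analysed here. Liver sample 1 had the lowest median correlation with the other arrays, 0.79. Myotube sample 1 and Raw 264 sample 2 followed, both at 0.83, with liver sample 2 close to them. The 3 arrays without LIF hold values of another kind and entered no comparison, which leaves 37 arrays in 13 groups.

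Promoter sequence is shown for the potassium channel Kcnh2, the member that differed most clearly, and for Slc3a2 and Slc7a11, which encode subunits of 1 heterodimeric amino acid carrier. Each line holds the 250 bases before the gene start, 5′ to 3′ on the gene's strand, as RefSeq gives them on GRCm38.p6. Capitals mark the GC box GGGCGG in Kcnh2 and Slc3a2 and the motif TGATGNAA, a core of amino acid response elements, in Slc7a11, each searched on both strands.
Kcnh2, chr5:24329592-24329841, minus strand: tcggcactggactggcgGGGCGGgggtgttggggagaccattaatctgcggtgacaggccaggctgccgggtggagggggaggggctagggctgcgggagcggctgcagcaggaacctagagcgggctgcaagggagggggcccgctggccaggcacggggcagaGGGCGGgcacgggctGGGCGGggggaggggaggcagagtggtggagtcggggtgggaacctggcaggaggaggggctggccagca
Slc3a2, chr19:8713898-8714147, minus strand: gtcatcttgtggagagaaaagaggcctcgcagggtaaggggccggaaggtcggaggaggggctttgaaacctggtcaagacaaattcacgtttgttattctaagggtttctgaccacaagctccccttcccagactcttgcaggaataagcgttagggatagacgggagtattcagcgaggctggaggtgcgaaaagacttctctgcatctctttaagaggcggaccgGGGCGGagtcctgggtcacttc
Slc7a11, chr3:50443614-50443863, minus strand: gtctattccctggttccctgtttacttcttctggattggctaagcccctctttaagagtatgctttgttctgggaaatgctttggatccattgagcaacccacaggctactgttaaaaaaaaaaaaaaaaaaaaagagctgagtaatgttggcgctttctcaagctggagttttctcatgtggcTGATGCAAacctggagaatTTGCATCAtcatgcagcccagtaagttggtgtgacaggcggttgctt
Kcnh2 held 3 GC boxes, Slc3a2 held 1 and Slc7a11 held 0. Slc7a11 held 2 copies of TGATGNAA, and Kcnh2 and Slc3a2 held 0. The GC box was in 34 of the 72 windows of the 53 members that matched a promoter entry (47.2%) and in 32.7% of all 32851 windows. TGATGNAA was in 2 of the 72 (2.78%) and in 3.45% of all. These matches describe the letters in the windows and name no site in use.

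Most members were dim, and they varied between sample types about as much as all spots did. The median level of all spots was 55.5, the 10th percentile 38.4 and the 90th percentile 110.9. Of the 65 members, 24 lay in the dimmest 25% of spots by mean level and 23 above the median spot (35.4%, against 47% of all named spots). Brightness depends on the spotted clone as well as on the RNA, so it is given here only as a measure of signal. Members in the brightest 10% were Kcnh2, the inward rectifiers Kcnj15 and Kcnj16, the calcium-activated potassium channel subunit Kcnmb4, Slc35d2 and Slc7a6os. The range between the lowest and highest group mean of a member had a median of 0.39 on the log2 scale, against 0.40 over all spots. That scale is log2(normalized intensity + 38423), the offset being the 10th percentile of all values, so fold changes understate those of dim spots.

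**Figure D1:**
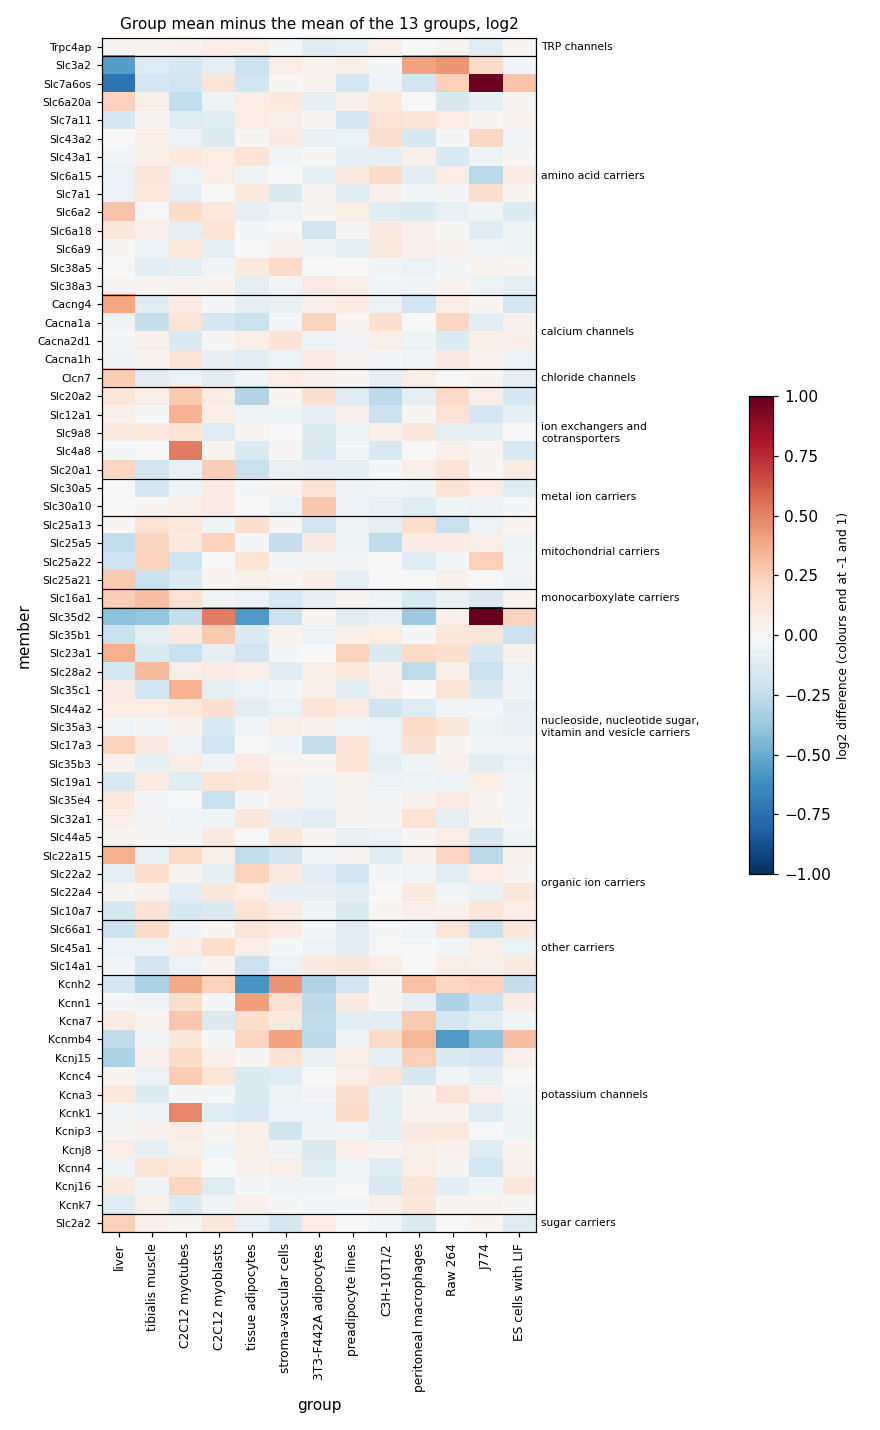
Mean log2 level of each of the 65 members (rows, grouped by role and ordered by the F test) in each of the 13 groups (columns), minus the mean of the 13 groups; colours run from -1 (blue) to 1 (red). Slc35d2 and Slc7a6os stand out in J774, Kcnh2 in stroma-vascular cells and tissue adipocytes, and most other rows are pale.

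A moderated F test (limma, over the 13 groups) asked which members differed among the sample types at all, with Benjamini-Hochberg adjustment over all 5760 spots and a call at an adjusted p under 0.05. It called 4 of the 65 members (6.15%), where it called 9.84% of all spots. The 4 were Kcnh2 (adjusted p = 0.00109), the nucleotide sugar carrier Slc35d2 (adjusted p = 0.0198), the amino acid carrier subunit Slc3a2 (adjusted p = 0.0335) and the potassium channel Kcnn1 (adjusted p = 0.0482). At an unadjusted p under 0.05 there were 11 members (16.9%, against 25.1% of all spots), the others being Slc35b1, Slc7a6os, Slc23a1, Slc28a2, Kcna7, Kcnmb4 and Slc20a2. Both shares of members lay below those of all spots. Of 25 other genes on the arrays taken by symbol as pumps, pores or gated receptors (1 of them, Pkdcc, is a protein kinase), 3 were called: the sarcoplasmic calcium pump Atp2a1, the muscle acetylcholine receptor subunit Chrna1 and the mitochondrial pore Vdac2.

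Of the 13 potassium channel genes, 2 passed the F test by the spot used for each gene. Kcnh2 encodes the pore-forming subunit of a voltage-gated channel known from cardiac repolarization. Its level was 208, 154 and 156 in the 3 stroma-vascular samples and 58.1, 77.8 and 59.6 in the 3 tissue adipocyte samples of the same fat depot. The groups did not overlap, and every stroma-vascular sample was at or near the top of the 37 arrays. Kcnh2 was 166, 137 and 148 in peritoneal macrophages, 141, 150 and 138 in myoblasts, 201 and 129 in myotubes, 123, 154 and 144 in Raw 264, and 136 and 149 in J774. It was 83.1 and 87.2 in tibialis muscle, 107 and 88.7 in liver, 73.1, 92.4 and 95.8 in 3T3-F442A adipocytes, and from 73.7 to 122 in the preadipocyte samples. In C3H-10T1/2 it was 157, 149 and 66.9, and in ES cells with LIF 124, 91 and 67. All samples of stroma-vascular cells, peritoneal macrophages, the macrophage lines, myoblasts and myotubes thus lay above all samples of tibialis muscle, liver, both kinds of adipocyte and the preadipocyte lines. C3H-10T1/2 and ES cells were spread over both sets. The sets were drawn from these same values, so their separation is no test. They were parted only by 122 in a preadipocyte sample and 123 in a Raw 264 sample.

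Adipocytes against stroma-vascular cells compares the fat cells of the depot with its other cells after plating. Kcnh2 was lower in adipocytes by 1.02 on the log2 scale (log2 fold change -1.02 ± 0.18 SE, n = 3 and 3, limma adjusted p = 0.00151), with mean levels of 65.2 ± 10.97 and 173 ± 30.8 (SD). It was the single member called there, where 0.503% of all spots were called. Among the other 64 members, Kcnip3, a potassium channel-interacting calcium sensor, and the cationic amino acid carrier Slc7a1 reached an unadjusted p under 0.05, as did 8.51% of all spots. The sample titles carry replicate numbers but do not say that the numbers pair these samples. A fit of these 2 groups blocked on the number called 247 spots. The 2 groups without the block gave 115 and the fit of all groups 29. Kcnh2 was the single member among them in each (limma adjusted p = 0.00123 with the block). With more than 1 cell type in each preparation, fewer cells of a type and less RNA per cell cannot be told apart here. In stroma-vascular cells and adipocytes, respectively, the macrophage markers summed to 319–344 and 305–332 (0 of 5 called) and the adipocyte markers to 268–317 and 395–598 (2 of 4 called, lower in stroma-vascular cells). The endothelial marker Cdh5 was 67.4–95.4 and 46.7–54.4 and the fibroblast marker Timp2 73.6–149 and 43.02–61.4, neither of them called though neither overlapped. Each of these cell types rests on 1 spot. Cdh5 also reached 78.8 in Raw 264, and Timp2 reached 399 in myoblasts. The part of the markers in the Kcnh2 result was not tested.

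All 78 pairs of groups were also compared, adjusted over every spot and pair, an analysis added after the data were seen. Kcnh2 was called in 9 pairs: above tissue adipocytes in stroma-vascular cells, peritoneal macrophages, myotubes, myoblasts, Raw 264 and J774, and in stroma-vascular cells above 3T3-F442A adipocytes, ES cells with LIF and tibialis muscle. No neighbours in its order of group means differed by this test, the widest step being 0.26 on the log2 scale between tibialis muscle and tissue adipocytes. The difference of differences, adipocytes minus stroma-vascular cells in tissue against 3T3-F442A adipocytes minus preadipocyte lines in culture, was -0.91 ± 0.24 for Kcnh2 and did not pass (limma adjusted p = 0.110). No member was called by that test, which called 0.226% of spots, and 4 members had an unadjusted p under 0.05, as did 8.44% of spots.

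Kcnn1 encodes a small-conductance potassium channel opened by intracellular calcium. Its level was 140, 104 and 103 in tissue adipocytes and 60.1, 54.2 and 57.2 in 3T3-F442A adipocytes. The groups did not overlap. Tissue adipocytes against these cultured adipocytes compares fat cells of the animal with fat cells made in the dish, and Kcnn1 was higher in the former (log2 fold change 0.68 ± 0.15 SE, n = 3 and 3, limma adjusted p = 0.0133; mean levels 116 ± 21.2 and 57.2 ± 2.92, SD). It was the single member called, where 2.53% of spots were called, and 7 members had an unadjusted p under 0.05 (10.8%, against 18.3% of spots). Without 3T3-F442A sample 2, 3T3-F442A sample 3 or tissue adipocyte sample 1 the call was lost, with fold changes of 0.66, 0.68 and 0.57. In tissue against 3T3-F442A adipocytes the resistin gene Retn and Cd79b, listed as a lymphocyte marker, were higher and Lpl and Timp2 lower. The part of these genes was not tested. Cd79b was 154–204 in tissue adipocytes and 74.5–112 in 3T3-F442A adipocytes. It was also 94.5–173 in C3H-10T1/2 and 114–159 in ES cells with LIF, both of them cell lines.

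Across the other groups Kcnn1 was 64.9, 49.7 and 48.5 in Raw 264, 60.9 and 59.5 in J774, 64.8, 73.3 and 70.7 in peritoneal macrophages, and 90.7, 96.5 and 77.2 in stroma-vascular cells. In preadipocyte samples it ran from 73.1 to 96.9. It was 110.7 and 73.99 in myotubes, 52.2 and 102.9 in liver, 61.4 and 87.4 in tibialis muscle, 69.6, 58.9 and 97.6 in myoblasts, 83.1, 61.7 and 91.9 in C3H-10T1/2, and 102.2, 61.5 and 87.9 in ES cells with LIF. Single samples of myotubes and liver thus reached the lower tissue adipocyte samples. Over all pairs, tissue adipocytes also lay above Raw 264 (0.73 ± 0.15, limma adjusted p = 0.00855). The F test call of Kcnn1 was kept in 12 of 37 fits that left out 1 array. It was lost with a replicate block in a fit that also left out the preadipocyte lines (limma adjusted p = 0.0718). Slc23a1 was called there instead, and the block and the omission cannot be told apart. The Kcnn1 call was also lost with 4 times the offset (0.0618) and with a running median over neighbouring rows removed (0.0811). Neighbours in its order of group means differed by at most 0.24 on the log2 scale and were not called.

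**Figure D2:**
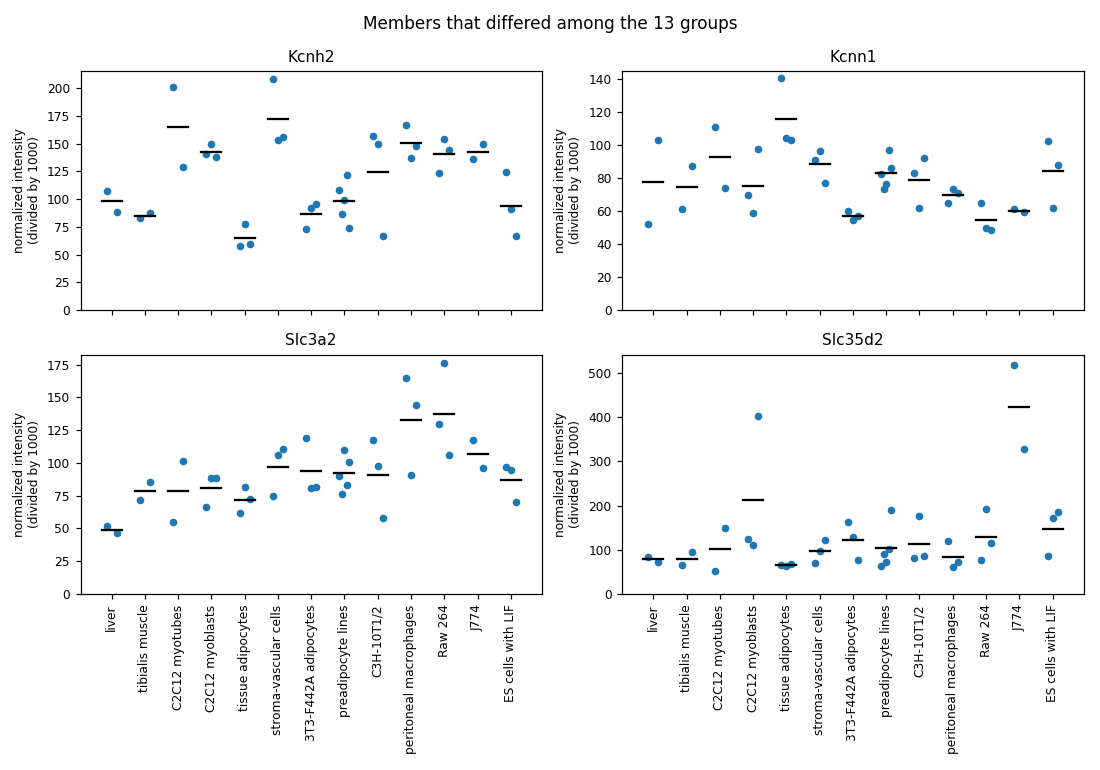
Level (normalized intensity divided by 1000, linear axis from 0) of Kcnh2, Kcnn1, Slc3a2 and Slc35d2 in each sample (points) of the 13 groups, with the group mean (bar); both 3T3-L1 samples are drawn as points. Kcnh2 is highest in stroma-vascular cells, Kcnn1 in tissue adipocytes and Slc35d2 in J774, and Slc3a2 is lowest in the 2 liver samples.

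By the spot used for each gene, the other 11 potassium channel genes did not pass the F test. The dimmer of the 2 Kcnj16 spots, not used here, did pass (limma adjusted p = 0.0416). Kcnmb4, the regulatory subunit of a large-conductance channel, was bright and uneven: 106, 135 and 320 in Raw 264, 148 and 251 in J774, and 336, 339 and 373 in peritoneal macrophages. One Raw 264 sample lay close to the macrophages. The fold change of macrophages over the mean of both lines was 0.82 ± 0.25 (limma adjusted p = 0.0668). It was called with median scaling, with bright spots only, and without Raw 264 sample 3 or J774 sample 2. Kcna7, a voltage-gated channel, was 84.1, 83.1 and 82.4 in tissue adipocytes and 50.04, 52.5 and 53.1 in 3T3-F442A adipocytes. These groups did not overlap, and the fold change of 0.43 ± 0.14 did not pass (limma adjusted p = 0.0914). With only the 2 groups in the fit, Kcna7 was called beside Kcnn1.

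The leukocyte channel Kcna3 was 45.7, 36.5 and 45.05 in peritoneal macrophages, within the 27.04 to 68.6 seen over all arrays (F test adjusted p = 0.505). Kcnn4, the intermediate-conductance channel of blood cells, was 63.4, 86.7 and 61.4 in peritoneal macrophages and 91.2 and 59.6 in tibialis muscle (adjusted p = 0.859). Kcnj15 ran from 308 to 691 and Kcnj16 from 499 to 954 over the 37 arrays, high on every array. Kcnk1, a two-pore channel, was 134 in myotube sample 1 and 45.3 in sample 2, and 44.1, 33.99 and 44.3 in myoblasts. The high value is that of 1 of the 2 myotube samples.

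Of the 13 genes grouped as amino acid carriers, 1 passed. Slc3a2 encodes the heavy chain that carries several amino acid exchangers to the plasma membrane. Its level was 51.6 and 46.2 in liver, 165, 90.8 and 144 in peritoneal macrophages, 130, 176 and 106 in Raw 264, and 117 and 95.8 in J774. Both liver samples lay below every sample of these 3 groups. In stroma-vascular cells it was 74.6, 106 and 111, in tissue adipocytes 61.5, 81.9 and 72.1, in tibialis muscle 71.7 and 85.7, and in preadipocyte samples 76.5 to 110. Over all pairs, liver was lower than Raw 264 (-0.99 ± 0.20, n = 2 and 3, limma adjusted p = 0.00664) and lower than peritoneal macrophages (-0.95 ± 0.20, n = 2 and 3, adjusted p = 0.00994). The F test call was lost in 9 of the 37 fits that left out 1 array, among them those without either liver sample. With 4 times the offset it was lost as well (limma adjusted p = 0.0541), as it was without the 2 arrays of lowest correlation. In none of the 9 planned comparisons was Slc3a2 called.

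The single light chain of Slc3a2 among the members, Slc7a11, gave no F test call, nor did the other genes grouped as amino acid carriers. Slc7a11, the cystine and glutamate exchanger that pairs with Slc3a2, was 53.7, 73.4 and 65.2 in peritoneal macrophages, 53.4, 78.2 and 50.2 in Raw 264, and 36.96 and 54.2 in liver (F test adjusted p = 0.298). The liver range overlaps those of both other groups. Slc7a1 was 69.6, 57.5 and 63.2 in tissue adipocytes and 34.2, 57.05 and 53.4 in stroma-vascular cells (F test adjusted p = 0.608). Slc7a6os, the gene opposite a carrier, was 323 and 185 in J774 and 43.8 and 52.03 in liver, a difference called over all pairs (1.72 ± 0.35, n = 2 and 2, limma adjusted p = 0.00703). It did not pass the F test (adjusted p = 0.0935).

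Of the 13 carriers of nucleosides, nucleotide sugars, vitamins and vesicle contents, 1 passed. Slc35d2 encodes a carrier that brings nucleotide sugars into the Golgi. Its level was 519 and 329 in J774, and 402 in myoblast sample 3 was the single value elsewhere above 193. Myoblast samples 1 and 2 were at 125 and 110. It was 76.1, 193 and 115 in Raw 264, 119, 60.3 and 72.3 in peritoneal macrophages, 64.97, 63.6 and 68.2 in tissue adipocytes, and 83.9 and 71.9 in liver. Raw 264 thus overlapped with peritoneal macrophages, and J774 did not overlap with any group but the myoblasts.

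Peritoneal macrophages against the macrophage lines compares primary cells with transformed ones. Slc35d2 was lower in the primary cells (log2 fold change -1.16 ± 0.31 SE, n = 3 against the mean of 3 Raw 264 and 2 J774 samples, limma adjusted p = 0.0339), the single member called where 2.73% of spots were called. With the unadjusted p, 9 members were under 0.05 (13.8%, against 14.1% of spots). The call was lost with median scaling (-1.01), where Kcnj15 and Kcnmb4 were called as higher in its place, with a block for the replicate number (-1.14, limma adjusted p = 0.0556), where Slc7a6os was called as lower, and in 4 of 8 fits without 1 sample, with adjusted p up to 0.232. Within the lines, J774 lay above Raw 264 by 1.504 ± 0.38 over all pairs (limma adjusted p = 0.0434), and it lay above 9 more groups, all but the myoblasts and ES cells. Leaving out J774 sample 1 or 2 ended the F test call of Slc35d2 (adjusted p = 0.192 and 0.0578). The macrophage markers summed to 395–404 in J774 and 813–994 in peritoneal macrophages (3 of 5 higher in the latter against the lines), and their part was not tested.

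Slc35b1, an endoplasmic reticulum nucleotide carrier, ran from 54.1 to 120 over the arrays. It was 87.2, 112 and 120 in myoblasts, 64.6, 78.2 and 54.1 in ES cells with LIF, and 70.8 and 58.3 in liver. The myoblasts lay above both groups without overlap, and both differences were called over all pairs (0.48 ± 0.11 over ES cells, adjusted p = 0.0199; 0.49 ± 0.12 over liver, limma adjusted p = 0.0388). Slc28a2, a sodium-driven purine nucleoside carrier, was 62.3 and 75.4 in tibialis muscle, 45.8 and 30.3 in liver and 36.5, 30.98 and 33.6 in peritoneal macrophages. Macrophages were lower than tibialis muscle over all pairs (-0.57 ± 0.14, limma adjusted p = 0.0299). Over all 78 pairs, 8 members were called at least once (12.3%, against 16.7% of spots), in 28 of 5070 tests (0.552%, against 1.09%). Among them was Slc12a1, higher in myotubes than in C3H-10T1/2 (0.565 ± 0.145, limma adjusted p = 0.0472). Its level was 102 in myotube sample 1 and 42.97 in sample 2. No neighbours in the order of groups differed for any of these 8 members.

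The remaining carriers gave no F test call. Liver against tibialis muscle, the comparison of whole organs, called 0 of 65 members with limma, 9 having an unadjusted p under 0.05, where 1.68% of spots were called (14.6% unadjusted). Slc28a2 was nearest, at -0.49 ± 0.15 (adjusted p = 0.0908). Clcn7, the lysosomal chloride and proton exchanger, was 42.7 and 62.5 in liver and 31.05 and 32.4 in tibialis muscle (0.37 ± 0.12, limma adjusted p = 0.117). Without liver sample 1, Clcn7 passed, and without liver sample 2, Kcnj15 and Cacng4 did; in both fits the lone liver sample is assumed to vary like the other groups. The pump Atp2a1, outside the family, was lower in liver (log2 fold change -3.02 ± 0.22, limma adjusted p = 2.94e-11).

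Slc2a2, the glucose carrier known from hepatocytes, was 69.5 and 39.2 in liver and 41.9 and 41.8 in tibialis muscle. The second liver sample, whose liver markers summed to 807 against 2498 in the first, lay below both muscle samples. The part of the markers was not tested. The difference was 0.19 with a 95% interval from -0.11 to 0.49. The mean level of Slc2a2 was in the dimmest 1.65% of spots. Slc16a1, the lactate and pyruvate carrier, was 70.1 and 92.6 in liver, 90.6 and 80.1 in tibialis muscle, and between 35.7 and 82.5 on all other arrays (F test adjusted p = 0.317). Slc25a5, a mitochondrial ADP and ATP exchanger, was 71.01 and 47.4 in liver and 77.97 and 116 in tibialis muscle (-0.47 ± 0.19, limma adjusted p = 0.240). The phosphate carrier Slc20a1 was 44.7 and 88.8 in liver and 39.2 and 39.9 in tibialis muscle (0.40 ± 0.20, adjusted p = 0.347). Slc2a2 and Slc16a1 overlapped between the organs and Slc25a5 and Slc20a1 did not, which so few samples allow by chance. None of the 4 differences passed.

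Each remaining role is given by its member with the smallest F test p, none of them called. Slc20a2, a phosphate carrier, was 59.3, 45.2 and 59.01 in tissue adipocytes and 72.3, 103 and 90.2 in 3T3-F442A adipocytes (F test adjusted p = 0.190). The mitochondrial aspartate and glutamate exchanger Slc25a13 was 72.6, 87.8 and 63.7 in the former and 55.4, 39.8 and 54.4 in the latter (adjusted p = 0.222). Neither overlapped between these groups. Cacng4, an auxiliary calcium channel-family subunit, was 86.9 and 48.5 in liver and under 65 on all other arrays (adjusted p = 0.243). The others were the organic cation carrier Slc22a15 (adjusted p = 0.257), Slc30a5, a zinc carrier (0.399), Slc66a1, a lysosomal amino acid exporter (0.472), and Trpc4ap (0.892).

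**Figure D3:**
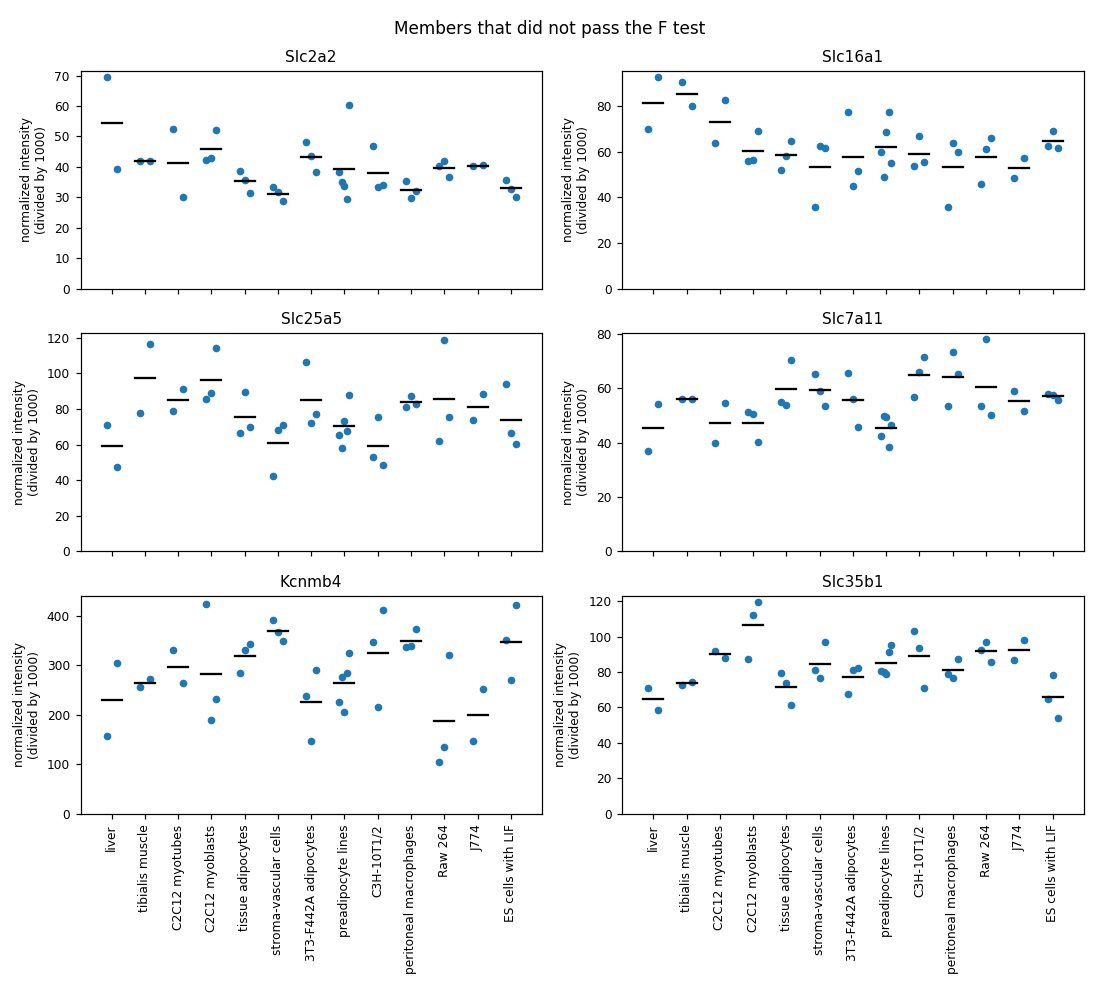
Level (normalized intensity divided by 1000, linear axis from 0) of 6 members that did not pass the F test, in each sample (points) of the 13 groups with the group mean (bar). The 2 liver samples of Slc2a2, at 69.5 and 39.2, lie on either side of the tibialis muscle samples, and the Raw 264 samples of Kcnmb4 spread from 106 to 320.

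No member passed the test between cultures before and after differentiation. For 3T3-F442A adipocytes against preadipocyte lines limma called 0 of 65 members, 4 with an unadjusted p under 0.05, where 0.139% of spots were called (9.62% unadjusted). The preadipocyte samples came from 4 lines, 3T3-F442A among them. Differences between lines and the rosiglitazone treatment cannot be told apart from differentiation in this comparison. Slc30a10, a manganese carrier, was 74.4, 71.97 and 73.6 in adipocytes and 41.1 to 56.8 in preadipocyte samples. The groups did not overlap, and the fold change of 0.33 ± 0.12 did not pass (limma adjusted p = 0.343). Kcnn1 went the other way, at -0.36 ± 0.14 (adjusted p = 0.404).

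For C2C12 myotubes against myoblasts limma called 0 of 65 members, 6 with an unadjusted p under 0.05, where 0.156% of spots were called (9.50% unadjusted). Slc35c1, the GDP-fucose carrier of the Golgi, was 80.5 and 83.3 in myotubes and 39.6, 52.4 and 59.95 in myoblasts, without overlap (0.44 ± 0.15, limma adjusted p = 0.306). Against tibialis muscle, at 50.02 and 39.6, it was the member with the smallest p as well (-0.53 ± 0.16, adjusted p = 0.139). In that comparison 0 members were called and 8 had an unadjusted p under 0.05, where 0.885% of spots were called (8.80% unadjusted). Slc4a8, a sodium-driven bicarbonate exchanger, was 152 in myotube sample 1 and 42.7 in sample 2, and Slc12a1, a sodium, potassium and chloride cotransporter, 102 and 42.97. With Kcnk1, these were called over myoblasts when myotube sample 2 was left out, a fit in which sample 1 alone stands for the myotubes and the other groups give the spread.

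Peritoneal macrophages against stroma-vascular cells, both plated for the same time, had 0 members called by limma and 2 with an unadjusted p under 0.05, where 0.434% of spots were called (5.16% unadjusted). Kcnip3 had the smallest p (0.29 ± 0.12, adjusted p = 0.712). ES cells with LIF against C3H-10T1/2 had 0 members called and 1, Slc35b1, with an unadjusted p under 0.05, where 0.208% were called (4.05% unadjusted). Slc35b1 was lower in ES cells by 0.29 (-0.29 ± 0.11, limma adjusted p = 0.811). The median standard error of a member's fold change ran from 0.12 to 0.16 over the 9 comparisons, and the smallest fold change called among all spots ran from 0.32 to 0.71, which limits what changes could be detected in members that ranged over 0.39.

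**Figure D4:**
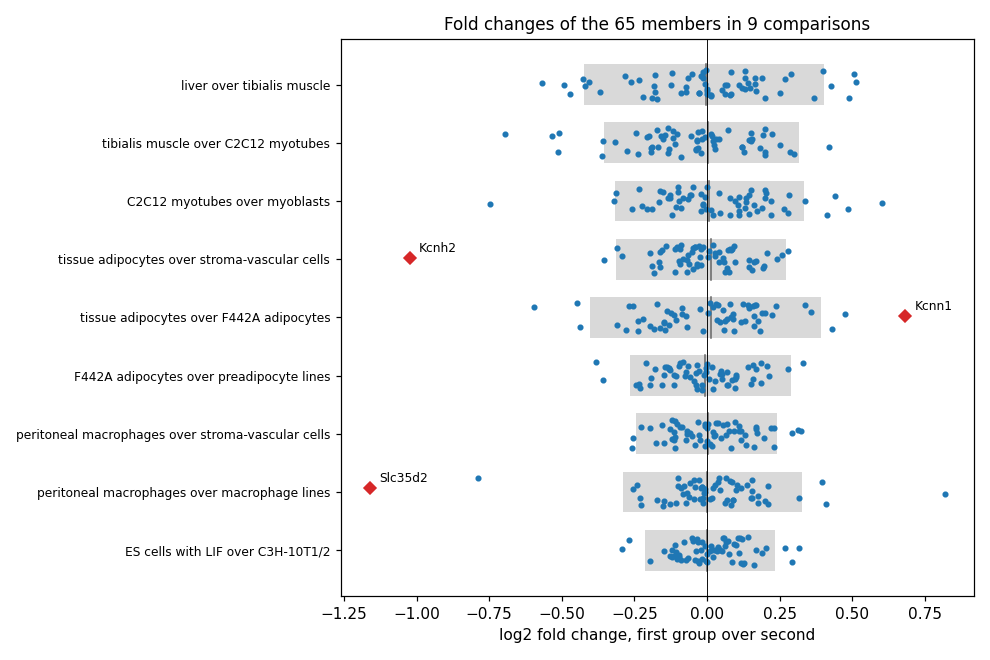
Log2 fold change of each member (blue points; red diamonds where called at an adjusted p under 0.05) in the 9 comparisons, over the 5th to 95th percentile (grey bar) and median (grey line) of all 5760 spots. The 3 called members are Kcnh2 at -1.02, Kcnn1 at 0.68 and Slc35d2 at -1.16, and most others lie within the grey bars.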

How the data were processed

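RNA extracted with Tripure was treated with DNase, labelled with 33P, hybridized to Resgen filters and quantified with Imagene, per the labels' protocols. What the authors deposited is a linear intensity for each of 5760 spots. Not given in the sources used here were any background correction, scaling or software version. The lowest spot of the 37 arrays used was 7675, and array medians ran from 18871 to 132228. In the 3 arrays without LIF the 99th percentile was 60.0 to 391 times the median, against 3.87 to 17.5 times elsewhere. Spots were named by the platform annotation (3420 with 1 symbol, 98 with several, 2242 with none), and 3346 were matched by gene identifier to current symbols.

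Quantile normalization of the 37 arrays was followed by log2 of the intensity plus 38423. The 2 samples of 3T3-L1 were averaged, which leaves 4 lines as replicates. Proliferating C2C12 samples, whose source name calls them preadipocytes, were grouped by title. One limma 3.58.1 fit in R 4.3.3 (lmFit, contrasts.fit, eBayes; 23 residual degrees of freedom) gave the F test and 9 comparisons, two-sided, with Benjamini-Hochberg adjustment over all spots; it was tested on simulated data. No 2 arrays held identical values, and replicates correlated at 0.807 to 0.964. The number of arrays limits the precision.

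Members, roles and lists were chosen with earlier results of these data known. Members were named if called, if first of their role by the F test, or if on a list of textbook carriers and channels; a few others named with values were picked after their values were seen. Same-numbered samples deviated together for adipocytes and stroma-vascular cells (r from 0.103 to 0.378) and for ES cells and C3H-10T1/2 (0.388 to 0.635). Peritoneal macrophages and J774 gave 0.135 to 0.151. The sample titles do not say that the numbers pair samples, and pairing cannot be told apart from a shared batch here. Plots were made in Python 3.11.15 with matplotlib 3.10.9.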

Additional observations from a re-analysis of the deposited data

Results flagged for a closer look

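Arrays of ES cells without LIF, which entered no comparison, were read as the percentile of each spot within its own array. In 7 of 65 members (10.8%, against 7.95% of all spots) all 3 arrays without LIF lay above all 3 with LIF. Median percentiles without and with LIF were 33.6 and 11.5 for Slc12a1, 31.1 and 2.57 for Slc2a2, 43.3 and 31.4 for Kcnk1, 5.03 and 2.48 for Clcn7, 36.4 and 23.2 for Slc35b3, 88.7 and 68.4 for Kcna7, and 39.5 and 16.6 for Slc30a5. In 5 members (7.69%, against 8.04% of spots) all 3 lay below: Slc14a1 (6.7 and 61.7), Slc66a1 (39.9 and 79.2), Kcnj8 (2.66 and 28.7), Slc22a4 (25.2 and 43.1) and Slc25a21 (3.49 and 16.2). The difference in kind between these arrays cannot be told apart from the culture condition.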

How the results depend on the processing

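Alternatives were median scaling, subtraction of each array's 5th percentile, 4 times the offset, bright spots only, removal of a running median over neighbouring rows, all 40 arrays, the mean of a gene's spots, only the compared groups, a replicate block, the 3T3-F442A sample as baseline and leaving out each sample; added after seeing the data were a crossed block and leaving out the 2 arrays of lowest correlation. For the F test, the replicate block was fitted without the preadipocyte lines. Kcnh2, Kcnn1 and Slc35d2, the members called in a planned comparison, kept the sign of their fold change there. This held in all 9 settings and in all fits without 1 sample. Kcnn1 ran from 0.35 to 0.97 and Slc35d2 from -1.43 to -0.75. F tests and counts of members hold no sign, so a reversal could not be seen in them. The F test count of 4 members became 7 with median scaling and 1 to 8 without 1 sample. Liver over tibialis muscle gave 0, 1 with the running median removed, 2 without the 2 arrays and 0 to 2 without 1 sample. Macrophages over macrophage lines gave 1 (0 higher, 1 lower), and 2 with median scaling (2 higher, 0 lower, Slc35d2 not among them), with bright spots only (1 higher, 1 lower) or with only the compared groups (0 higher, 2 lower), and 0 to 2 without 1 sample. Tissue over 3T3-F442A adipocytes gave 1, and 9 with median scaling (6 higher, 3 lower; 932 spots called in place of 146), 2 with only the compared groups, 2 with the replicate block and 0 to 1 without 1 sample. Tibialis muscle over myotubes gave 0, 1 with the replicate block (Kcnh2) and 0 to 4 without 1 sample, and myotubes over myoblasts 0 to 3 without 1 sample. The other 4 comparisons kept their member counts in every fit run. Kcnh2 against stroma-vascular cells was called in all 9 settings and all 6 fits without 1 sample, from -0.57 to -1.36. Crossing the numbers of liver and tibialis muscle, whose same-numbered samples correlated at -0.107, called 2 spots and 0 members. The cause of each change was not tested. Intensities are not background-subtracted as far as the values show, which limits dim members most.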

Other observations

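A gene's spots often did not track each other. Over the 37 arrays, the 2 spots correlated at 0.26 for Cacna2d1, 0.33 for Kcnj16, -0.23 for Slc25a13 and -0.04 for Slc43a1, and the median over 122 genes with 2 spots was 0.02. The dimmer Kcnj16 spot passed the F test (limma adjusted p = 0.0416), and the brighter one, used above, did not (0.877).

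Among the 2080 pairs of members the median correlation over the 37 arrays, which share groups and scaling, was 0.0009. The highest were 0.76 for Slc10a7 with Slc22a2, 0.73 for Slc12a1 with Slc4a8 and 0.71 for Slc7a6os with Slc35d2, whose spots lie 1442 rows apart in the table. In J774 sample 1 the Slc35d2 spot was 1.88 above its own mean on the log2 scale, and the median of its 10 neighbouring rows was -0.04 (highest 0.90). In sample 2 it was 1.28 above, with a neighbour median of -0.05 (highest 0.15).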
